A study of Mus musculus with 12 samples.

Results

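The genes described here are 10 that mark Trem2-type lipid-associated macrophages in other tissues: Trem2, Tyrobp, Apoe, Gpnmb, Spp1, Lgals3, Fabp5, Cd9, Plin2 and Cd68. They were listed by name, and all 10 were found among the 24197 genes of the deposited table. RNA was measured in tumors grown from E0771 cells, a mouse mammary carcinoma line, implanted in the fourth mammary fat pad, the hosts being C57/BL6N females. Mice received the alkylating drug cyclophosphamide (CPA, 130 mg/kg per the labels) by i.p. injection, and tumors were taken after 1, 2, 3 or 6 days, or after 12 days with a further dose on day 6. Vehicle mice received PBS. The study's library table gives another dose for these libraries, so the dose is not certain. The study asked how tumor gene expression changed over time after CPA.

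All tumors came from the same cell line, implanted in mice 7 weeks old, and treatment began at an average tumor volume of 200 to 250 mm3. The 12 libraries fall into 6 groups of 2: CPA day 1, day 2, day 3 and day 6 (1 dose), CPA day 12 (2 doses) and vehicle. Each library is a pool of RNA from 2 to 3 tumors, so variation between single tumors is not seen. Mice were 9 to 10 weeks old in the vehicle, day 1, day 2 and day 3 groups, 11 weeks old on day 6 and 12 weeks old on day 12. Age and days after CPA thus cannot be told apart at the late times, nor can number of doses on day 12. Tumors are whole tissue and no cells were sorted. In such bulk samples, more cells of a type and more RNA per cell cannot be told apart. For 1 day 1 library the title says CPA and the treatment entry says vehicle. It was kept in the day 1 group by its title.

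The deposited table gives a single FPKM value (reads on a gene, scaled to its length and to sequencing depth) per gene and group, the authors' mean over the 2 libraries. Because each mean is given to many decimals, the whole read counts of both libraries could be solved with the gene length. This was done for 20184 of the 20186 genes above 0 and for all 10 genes described here. The counts of a gene are known up to a factor common to all libraries, on which its FPKM do not depend. Which pool a recovered library is cannot be told, so the libraries of a group are called the deeper and the shallower by their depth, and the deeper is given first in each pair of values below. Summed gene counts ran between 8401633 and 21043197 reads per library, with both the lowest and the third lowest on day 12. The 2 day 12 libraries stood apart: the correlation of log2 levels over 11695 genes was 0.925 between them, against 0.975 to 0.989 between the 2 libraries of every other group. Differences were tested with limma on log2 (FPKM + 0.1) of the 12 libraries, with p-values adjusted (Benjamini-Hochberg) over 11695 genes at 1 FPKM or more in at least 1 group. A gene is called higher or lower at an adjusted p under 0.05, and "log2 fold change" below is limma's value with its standard error. All comparisons with vehicle share the same 2 vehicle libraries.

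TREM2 is a receptor on macrophages and microglia that binds lipids, lipoproteins and cell debris, and it signals through the adaptor TYROBP (DAP12). Macrophages that take up lipid in fat tissue, arterial plaques, injured brain and tumors are known to turn on a shared set of genes, which covers lipid carriage (APOE, FABP5), lipid storage (PLIN2), lysosomes (CD68, GPNMB), secreted and matrix proteins (SPP1, LGALS3) and membrane organization (CD9). Several of these genes are also used by other cells, including tumor cells and adipocytes.

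On days 1 and 2 none of the 10 genes was called. On day 1, limma called 0 of 10, beside 0 of 11695 genes in either direction (percent called 0), and 0 of the 10 had an unadjusted p under 0.05. On day 2, 0 of 10 were called, beside 0.231% of all genes called higher and 0.0684% called lower, and 2 of the 10 (Spp1 and Trem2) had an unadjusted p under 0.05. A weighted fit to the recovered counts (limma-voom) also called 0 of 10 on each of those days. Leaving out either day 1 library, 1 of which has the conflicting label, still gave 0 calls on day 1. On day 3 only Spp1 was called, 1 of 10 higher beside 0.727% of all genes, and 0 of 10 were called lower beside 0.137%.

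On day 6, 6 of the 10 genes were called higher (Apoe, Cd68, Fabp5, Spp1, Trem2 and Tyrobp), beside 6.25% of all genes, and 0 were called lower, beside 0.581%. On day 12, 7 of 10 were called higher (the same 6 genes and Plin2), beside 20.4% of all genes, and Cd9 was called lower, beside 34.2%. Gpnmb and Lgals3 were not called on any day against vehicle. The day 6 calls depended on which libraries were in the fit, and only Trem2 kept its call when each of the 12 libraries was left out in turn. Without a day 1, 2 or 3 library, the log2 fold changes of Spp1 (1.56) and Cd68 (1.61) stayed the same and only their adjusted p rose. On day 12 every called gene except Cd68 kept its call without any single library. With over 2-fold change required as well, the 10 genes gave 0 calls on day 2 (0.18% of all genes higher, 0.0599% lower), 1 higher on day 3 (0.513%) and 0 lower (0.111%), 6 higher on day 6 (5.06%) and 0 lower (0.197%), and 7 higher on day 12 (14.8%) and 0 lower (9.73%).

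The ratios of the authors' group means, which need no library values, gave the same picture. Over 2-fold higher than vehicle were 0 of 10 genes on day 1 (0.398% of all genes at 1 FPKM or more in either group), 1 on day 2 (0.766%) and 2 on day 3 (1.45%). The number was 6 on day 6 (7.36%), and on day 12 it was 7 (16.2%). None of the 10 was over 2-fold lower on any of the 5 days, where the shares over all genes were 0.209%, 0.536%, 0.608%, 0.442% and 9.33% for days 1, 2, 3, 6 and 12. The 10 genes had a median log2 ratio of -0.01 on day 1, -0.10 on day 2 and 0.25 on day 3. For days 6 and 12 it was 1.34 and 1.82. Over all genes the median was 0.06, -0.03, 0.02, 0.04 and -0.21 on the same days. On day 12 the median gene at 1 FPKM or more in both groups lay at -0.26, so each day 12 change is also given relative to the median gene where that alters what can be said.

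**Figure D1:**
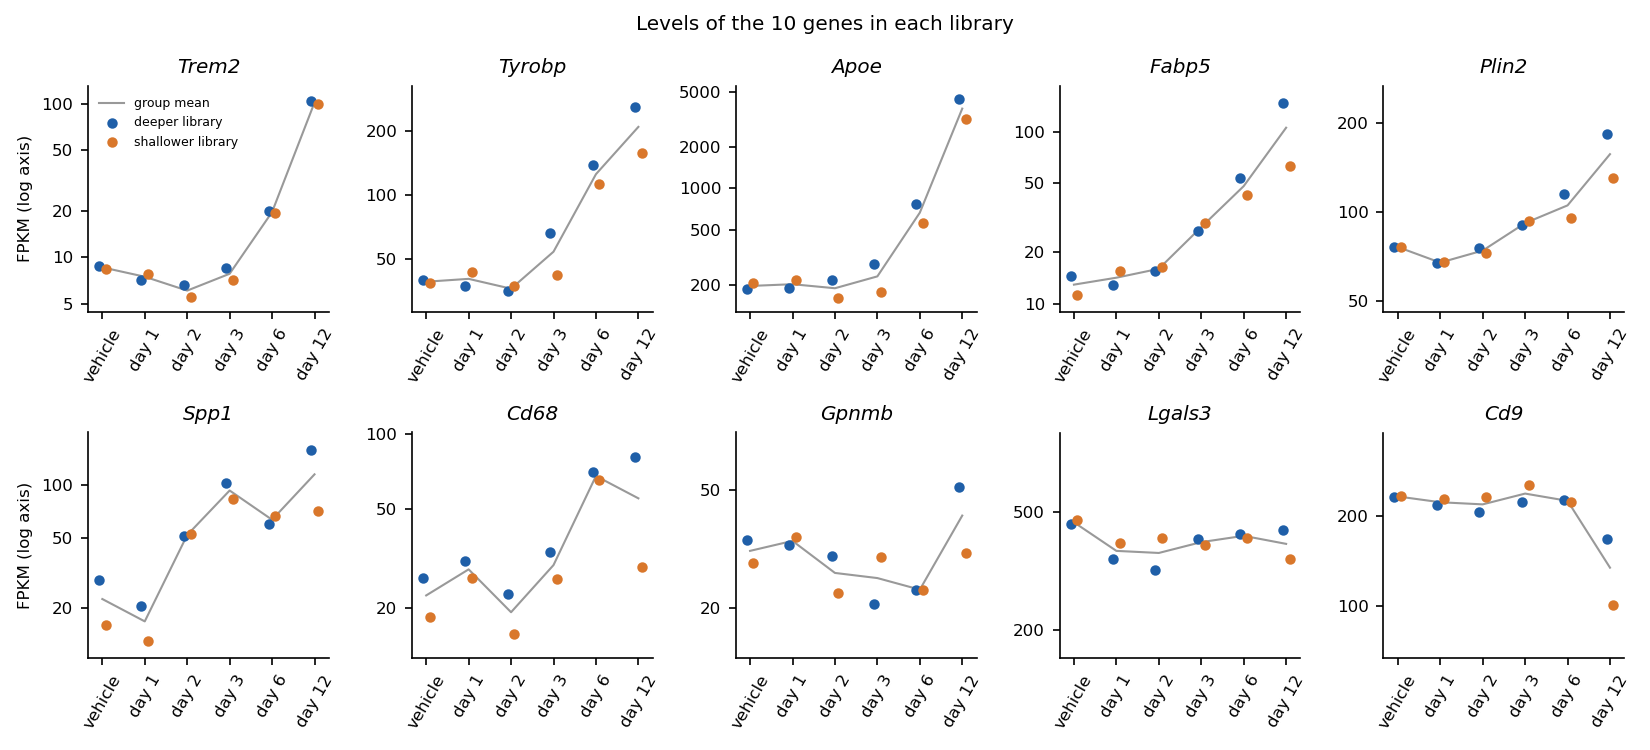
FPKM (log axis) of the 10 genes in vehicle and on days 1, 2, 3, 6 and 12 after CPA, with 1 point for each of the 2 libraries of a group and a line through the group means. Trem2 and Apoe stay near vehicle to day 3 and reach 102 and 3781 FPKM on day 12, Spp1 is already at 52.1 FPKM on day 2, and Lgals3 stays between 365 and 463 FPKM.

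Trem2 (mm9 chr17:48485725-48491601), the lipid-sensing receptor itself, was the lowest of the 10 genes in vehicle tumors and showed the second largest change on day 12. Its levels were 8.84 and 8.37 FPKM in vehicle, 7.16 and 7.79 on day 1, 6.61 and 5.53 on day 2, 8.54 and 7.09 on day 3, 20.1 and 19.4 on day 6, and 105 and 99.5 on day 12. The libraries of days 6 and 12 lay above both vehicle libraries, and those of days 1 and 2 lay below them. The counts behind these values were 1007 and 941 reads on day 6 and 4285 and 2135 on day 12, against 460 and 427 in vehicle. Trem2 was 2.28-fold higher on day 6 than in vehicle (log2 fold change 1.19 ± 0.13, adjusted p = 0.00195 by limma) and 11.7-fold higher on day 12 (3.55 ± 0.13, adjusted p = 1.3e-06 by limma). The dip on day 2 (-0.50 ± 0.13) did not pass, with an adjusted p of 0.247 by limma. Both calls were kept without any single library.

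Tyrobp (mm9 chr7:31198806-31202598), the adaptor that carries the signal of TREM2 and of other receptors on myeloid and NK cells, stood at 138 and 112 FPKM on day 6 and 260 and 158 on day 12, against 39.8 and 38.5 in vehicle. All 4 late libraries were above both vehicle libraries, while days 1 to 3 ran between 35.4 and 66.1 FPKM. The change was 3.18-fold on day 6 (log2 fold change 1.67 ± 0.26, adjusted p = 0.00521 by limma) and 5.16-fold on day 12 (2.37 ± 0.26, adjusted p = 0.000164). The day 6 call was lost without the shallower vehicle library (adjusted p = 0.0556) or without the deeper day 6 library (adjusted p = 0.0631). Tyrobp was thus ahead of Trem2 in fold on day 6 and behind it on day 12, an order for which the difference between the 2 genes was not tested.

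The promoters of Trem2, Spp1 and Cd68 are shown because they hold a match to a motif of macrophage or stress-activated factors and because these 3 genes follow different time courses here. Promoters were found in the RefSeq table (GRCm38.p6, not the mm9 build of the expression table) for 8 of the 10 genes, all but Tyrobp and Fabp5. Each is the 250 bases before the annotated start, 5′ to 3′ on the gene's strand, with matches in capitals: the core of PU.1 sites (GAGGAA or its reverse complement) and the AP-1 motif (TGAGTCA or TGACTCA). They lie at chr17:48346151-48346400 (plus strand, Trem2), chr5:104434861-104435110 (plus strand, Spp1) and chr11:69666171-69666420 (minus strand, Cd68).
Trem2: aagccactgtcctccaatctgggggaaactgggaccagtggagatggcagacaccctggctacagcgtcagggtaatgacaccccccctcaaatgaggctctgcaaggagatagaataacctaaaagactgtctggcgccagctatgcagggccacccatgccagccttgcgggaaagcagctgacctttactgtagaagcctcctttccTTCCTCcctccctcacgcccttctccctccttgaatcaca
Spp1: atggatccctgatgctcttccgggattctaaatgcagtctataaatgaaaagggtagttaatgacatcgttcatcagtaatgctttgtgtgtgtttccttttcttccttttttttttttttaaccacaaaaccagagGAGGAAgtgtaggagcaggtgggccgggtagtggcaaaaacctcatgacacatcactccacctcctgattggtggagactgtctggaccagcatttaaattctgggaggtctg
Cd68: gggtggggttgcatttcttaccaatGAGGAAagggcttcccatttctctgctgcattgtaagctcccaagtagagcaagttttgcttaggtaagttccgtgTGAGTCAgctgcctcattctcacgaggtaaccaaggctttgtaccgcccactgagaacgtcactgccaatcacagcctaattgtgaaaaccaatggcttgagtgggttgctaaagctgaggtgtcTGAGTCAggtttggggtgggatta
The PU.1 core began 40 bases before the start of Trem2, 113 before that of Spp1 and 225 before that of Cd68, and the AP-1 motif of Cd68 began 149 and 24 bases before its start. The 8 genes have 11 promoters in the table, 3 of them for Apoe and 2 for Spp1, of which the first is shown. On either strand, the PU.1 core was in 5 of these 11 promoters (1 each of Trem2, Spp1 and Cd68 and 2 of Apoe), beside 23.3% of 32851 mouse promoters of the same length. The AP-1 motif was in 1 of 11 (Cd68), beside 4.46%, and the E-box CACGTG, the motif of the MiT/TFE lysosomal factors, was in 0 of 11, beside 6.02%. A match is a run of letters in this window and no binding was measured.

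Among the lipid genes, Apoe changed most of all 10. Apoe (mm9 chr7:20281592-20284515), which encodes the apolipoprotein that carries cholesterol out of macrophages, was at 188 and 207 FPKM in vehicle, 190 and 217 on day 1, 219 and 161 on day 2, 284 and 179 on day 3, 778 and 559 on day 6, and 4407 and 3155 on day 12. Vehicle and the first 3 days overlapped, and the late groups lay apart from them and from each other. It was 3.34-fold higher on day 6 (log2 fold change 1.74 ± 0.27, adjusted p = 0.00576 by limma) and 18.9-fold higher on day 12 (4.24 ± 0.27, adjusted p = 2.21e-05). The day 6 call was lost without the shallower vehicle library (adjusted p = 0.0524) or the deeper day 6 library (adjusted p = 0.0686).

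Fabp5 (mm9 chr3:10012584-10016610) encodes a fatty acid binding protein of macrophages, epithelial cells and other cells. Its levels were 26.4 and 29.4 FPKM on day 3, 53.4 and 43.0 on day 6 and 147 and 63.5 on day 12, against 14.6 and 11.3 in vehicle. These 6 libraries were all above vehicle, and the 2 day 12 libraries differed from each other by 2.32-fold. The log2 fold change was 1.11 ± 0.32 on day 3 (adjusted p = 0.207 by limma), 1.89 ± 0.32 on day 6 (adjusted p = 0.00778) and 2.90 ± 0.32 on day 12 (adjusted p = 0.00018). With both day 12 libraries out of the fit, day 3 passed as well (adjusted p = 0.0105 by limma). The day 6 call was lost without the shallower vehicle library (adjusted p = 0.0895) or the deeper day 6 library (adjusted p = 0.0812).

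Plin2 (mm9 chr4:86302468-86315963) coats lipid droplets in most cell types. It stood at 115 and 95.4 FPKM on day 6 and 183 and 131 on day 12, against 76.4 and 76.3 in vehicle, and its vehicle libraries were almost equal. The late libraries were all above vehicle and the day 1 libraries (67.3 and 67.9 FPKM) below it. Plin2 was 2.03-fold higher on day 12 (log2 fold change 1.02 ± 0.16, adjusted p = 0.000978 by limma), a call kept without any single library. Its day 6 value of 0.46 ± 0.16 did not pass (adjusted p = 0.148 by limma), but passed with both day 12 libraries out of the fit (adjusted p = 0.0261).

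Spp1 (mm9 chr5:104865210-104870072, the first of 2 listed locations), the gene for osteopontin, a secreted ligand of integrins and CD44, was the first of the 10 to be called. Its levels were 29.1 and 15.96 FPKM in vehicle, 20.6 and 12.97 on day 1, 51.5 and 52.8 on day 2, 104 and 83.4 on day 3, 60.2 and 67.2 on day 6, and 160 and 71.1 on day 12. From day 2 on, every CPA library was above both vehicle libraries. The vehicle libraries differed by 1.82-fold and the day 12 libraries by 2.25-fold. The log2 fold change was 1.27 ± 0.38 on day 2 (adjusted p = 0.351 by limma), 2.10 ± 0.38 on day 3 (adjusted p = 0.0428), 1.56 ± 0.38 on day 6 (adjusted p = 0.041) and 2.30 ± 0.38 on day 12 (adjusted p = 0.00129). The day 12 call was kept without any single library. The day 3 call was lost without any 1 library of vehicle or of days 1, 2, 3 or 6 (adjusted p up to 0.401), and the day 6 call was lost without any of the same libraries except the deeper vehicle library (adjusted p up to 0.346). Both calls were also lost when libraries were rescaled to a common FPKM sum, with no minimum FPKM or with no variance trend (adjusted p between 0.0581 and 0.186).

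Cd68 (mm9 chr11:69477714-69479672), a lysosomal membrane protein widely used to stain macrophages, was at 70.0 and 65.1 FPKM on day 6 and 80.8 and 29.2 on day 12, against 26.5 and 18.4 in vehicle. The 4 late libraries were above vehicle, but the shallower day 12 library was only just so. Cd68 was the 1 gene of the 7 with a higher group mean on day 6 (67.5 FPKM) than on day 12 (55.0 FPKM). Its log2 fold change was 1.61 ± 0.40 on day 6 (adjusted p = 0.0415 by limma) and 1.13 ± 0.40 on day 12 (adjusted p = 0.0361). The day 6 call was lost without any 1 library of vehicle or of days 1, 2, 3 or 6 (adjusted p up to 0.314). The day 12 call was lost without any 1 library of vehicle, day 1 or day 6 or without the deeper day 12 library, where the log2 fold change was 0.40 (adjusted p = 0.222). Rescaling to a common FPKM sum or setting no minimum FPKM ended both calls, and fitting no variance trend ended that of day 6 (adjusted p between 0.0587 and 0.176).

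The remaining 3 genes were not called higher on any day. Gpnmb (mm9 chr6:48986516-49008181), a glycoprotein of lysosomes and melanosomes, was at 23.1 and 23.2 FPKM on day 6 and 51.5 and 30.8 on day 12, against 34.2 and 28.4 in vehicle. Both day 6 libraries were below vehicle and the day 12 libraries overlapped it. The log2 fold change was -0.43 ± 0.25 on day 6 (adjusted p = 0.465 by limma) and 0.35 ± 0.25 on day 12 (adjusted p = 0.259), and the day 12 value became 0.63 when libraries were recentred on the median gene (adjusted p = 0.0462). Lgals3 (mm9 chr14:47993534-48005842), which encodes the sugar-binding protein galectin-3, was the most abundant of the 10 in vehicle, at 455 and 470 FPKM, and stood at 436 and 347 FPKM on day 12. All 10 CPA libraries (319 to 436 FPKM) were below both vehicle libraries, but by at most 1.27-fold on the group mean, and the lowest adjusted p over the 5 days was 0.229 by limma. On day 12 its log2 fold change of -0.25 ± 0.17 became 0.02 when recentred on the median gene.

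Cd9 (mm9 chr6:125410283-125444773), a tetraspanin of many cell types that organizes membrane proteins, held 207 to 255 FPKM on days 1 to 6. On day 12 it was at 168 and 100 FPKM, against 233 and 234 in vehicle, below every other library. It fell by 0.84 ± 0.21 on the log2 scale on day 12 (1.8-fold, adjusted p = 0.00836 by limma). Recentred on the median gene the fall was smaller (log2 fold change -0.57, adjusted p = 0.0399), and under scaling on the upper quartile it did not pass (adjusted p = 0.0606).

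**Figure D2:**
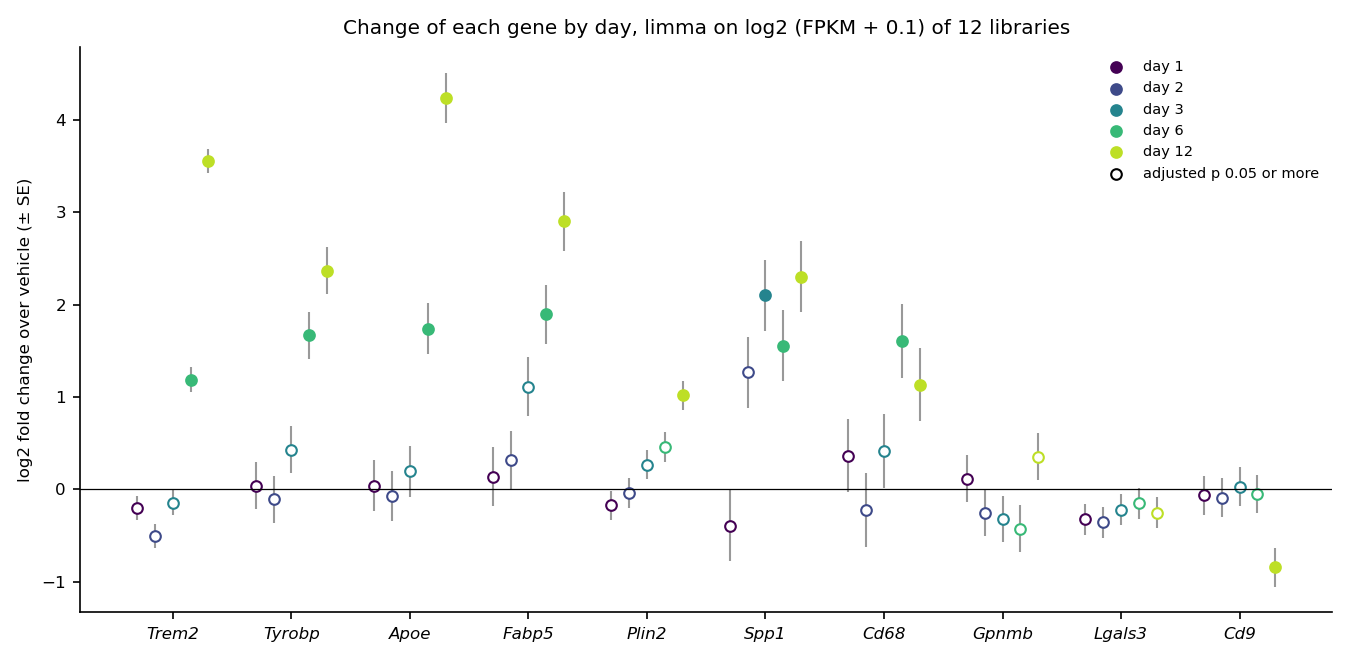
Log2 fold change over vehicle (± SE, limma, 2 libraries per group) of the 10 genes on days 1, 2, 3, 6 and 12, with filled points at an adjusted p under 0.05. Spp1 has the only filled point on day 3, 6 genes have one on day 6, and on day 12 Apoe (4.24) and Trem2 (3.55) stand highest and Cd9 (-0.84) lowest.

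Day 12 was then set against day 6, a comparison whose fold changes use no vehicle library. Its p-values still rest on the variance of all 12 libraries. The groups differ in number of doses (2 and 1), days after the first dose and mouse age (12 and 11 weeks). These cannot be told apart. Trem2 was 5.15-fold higher on day 12 than on day 6 (log2 fold change 2.37 ± 0.13, adjusted p = 0.000121 by limma) and Apoe 5.65-fold higher (2.50 ± 0.27, adjusted p = 0.00171), and both calls were kept without any single library. Fabp5 (1.01 ± 0.32), Gpnmb (0.78 ± 0.25), Tyrobp (0.70 ± 0.26) and Plin2 (0.56 ± 0.16) were also called higher, with adjusted p between 0.0199 and 0.0467 by limma. In all, 6 of 10 were called higher, beside 12.9% of all genes, and Cd9 was called lower (-0.80 ± 0.21, adjusted p = 0.0148), beside 34.2%. Trem2, Apoe and Fabp5 were the 3 of 10 also over 2-fold higher (7.88% of all genes), with 0 of 10 over 2-fold lower (9.34%). The calls of Fabp5, Gpnmb, Tyrobp, Plin2 and Cd9 were each lost without some single library: Fabp5, Gpnmb and Tyrobp without either day 6 library or the deeper day 12 library, Plin2 without the shallower day 6 or the deeper day 12 library, and Cd9 without either day 6 library or the shallower day 12 library. Tyrobp also lost it without either library of vehicle, day 1 or day 2. The adjusted p then ran between 0.055 and 0.246 over these genes. Recentred on the median gene, the Cd9 value was -0.48 and did not pass (adjusted p = 0.0795). Spp1 (0.74 ± 0.38, adjusted p = 0.134), Cd68 (-0.47 ± 0.40, adjusted p = 0.343) and Lgals3 (-0.10 ± 0.17, adjusted p = 0.642) did not pass. Spp1 passed when recentred on the median gene (1.06, adjusted p = 0.047) and without the shallower day 12 library (1.33, adjusted p = 0.0271). Cd68 was called lower without the deeper day 12 library (-1.21, adjusted p = 0.00531) and had the opposite sign without the shallower (0.26).

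The order of levels, on the FPKM scale that allows for gene length, changed with time. In vehicle tumors it ran Lgals3 (463 FPKM), Cd9 (234), Apoe (197), Plin2 (76.3), Tyrobp (39.2), Gpnmb (31.3), Spp1 (22.5), Cd68 (22.4), Fabp5 (12.9) and Trem2 (8.60). The library values of neighbours overlapped for Gpnmb and Spp1 and for Spp1 and Cd68, and not for any other neighbours. On day 12 it ran Apoe (3781 FPKM), Lgals3 (391), Tyrobp (209), Plin2 (157), Cd9 (134), Spp1 (116), Fabp5 (105), Trem2 (102), Cd68 (55.0) and Gpnmb (41.1). Between Tyrobp and Trem2 every pair of neighbours overlapped there, as did Cd68 and Gpnmb. The 10 genes together took 1.71% and 1.19% of all gene counts on day 12 and 0.540% and 0.463% on day 6, against 0.340% and 0.326% in vehicle.

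The label of these genes as macrophage genes was compared with 16 pan-macrophage markers that are not among them. Of the 15 at 1 FPKM or more, 12 passed as higher on day 6 (beside 6.25% of all genes) and 13 on day 12 (20.4%). Their median log2 ratio was 1.55 on day 6 and 2.28 on day 12. Among these, Lyz2, which encodes lysozyme of myeloid cells, averaged 502 FPKM on day 6 and 1192 FPKM on day 12, against 161 FPKM in vehicle. The complement gene C1qa averaged 319 FPKM on day 6 and 646 FPKM on day 12, against 106 FPKM in vehicle. The scavenger receptor gene Cd163 stayed under 1 FPKM on day 12. Trem2, Tyrobp, Apoe, Fabp5 and Cd68 were first called higher on day 6 and Plin2 on day 12, days when most macrophage markers were called too. Spp1 was first called on day 3, when 0 of the 15 markers tested were called. Gpnmb, Lgals3 and Cd9 were not called higher against vehicle on any day.

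To put each gene on the scale of these markers, the mean log2 (FPKM + 0.1) of the 16 was subtracted from its log2 level in each library. On day 12 the gene's level less the marker mean was 1.00 and 1.47 for Trem2, against -0.40 and -0.12 in vehicle. For Apoe it was 6.39 and 6.46 on day 12, against 3.99 and 4.49 in vehicle. Both genes thus stood higher against the markers on day 12, by 1.495 log2 units for Trem2 and 2.18 for Apoe on average, with no overlap of libraries. On day 6 Trem2 was slightly lower than in vehicle on this scale (by -0.27) and Apoe overlapped vehicle. Fabp5 was higher by 0.44 on day 6 and 0.85 on day 12, and Tyrobp by 0.31 on day 12, each with no overlap, while Spp1 overlapped vehicle on both days. On day 3, Spp1 stood at 2.92 and 3.20, against 1.30 and 0.80 in vehicle. Cd9 was 2.90 lower against the markers on day 12, Lgals3 2.31 lower, Gpnmb 1.70 lower, Plin2 1.04 lower and Cd68 0.92 lower, each with both libraries below vehicle. These differences are given as values, without a test.

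**Figure D3:**
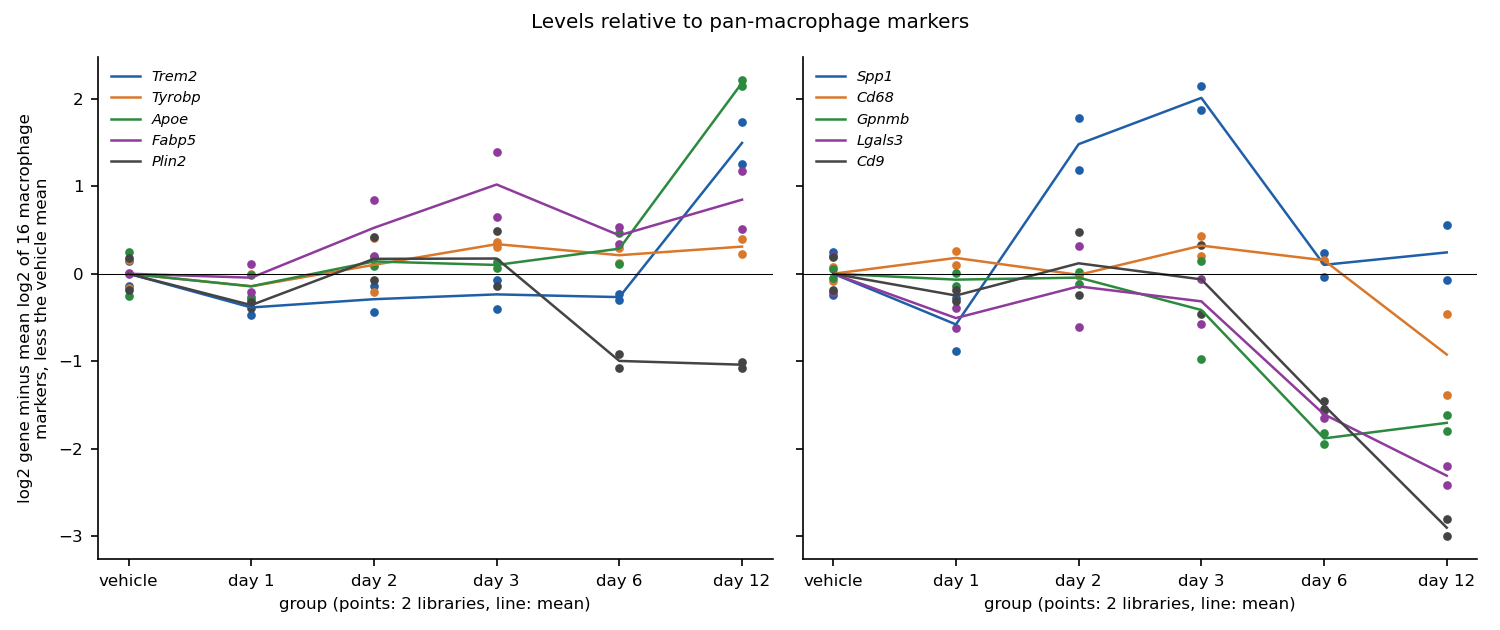
Log2 level of each gene less the mean log2 level of 16 pan-macrophage markers, set to 0 at the vehicle mean, with points for the 2 libraries of each group and lines through their means. Spp1 is highest on day 3, Apoe (2.18) and Trem2 (1.495) rise above the markers on day 12, and Gpnmb, Lgals3, Cd9 and Plin2 lie below them on days 6 and 12.

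Likeness of time courses was measured as the root mean square difference of log2 (FPKM + 0.1) over the 6 group means, each gene centred on its own mean, among 7349 other genes at 5 FPKM or more in any group. The 5 genes nearest to Trem2 were Cebpa at 0.07, a transcription factor of myeloid cells and adipocytes, Igf1 at 0.15, a growth factor of macrophages and stromal cells, Pygl at 0.19, the liver type glycogen phosphorylase, Cd24a at 0.19, a surface protein of B cells and epithelial cells, and Pf4 at 0.21, a chemokine of platelets and macrophages. Cebpa averaged 53.0 FPKM on day 12, against 4.29 FPKM in vehicle. The 2 day 12 libraries split these genes, since Cebpa was at 26.7 and 79.3 FPKM and Pf4 at 344 and 138, where Trem2 was at 105 and 99.5. With 6 points each, this likeness is a description and says nothing of shared control.

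Among the 10 genes, Apoe was nearest to Trem2 (0.23, place 13 of 7349), followed by Fabp5 (0.58, place 231) and Tyrobp (0.59, place 243). The closest pairs of all were Trem2 with Apoe (0.23), Tyrobp with Fabp5 (0.24), Lgals3 with Cd9 (0.29) and Gpnmb with Lgals3 (0.31). The farthest was Apoe with Cd9 (1.84). By this measure the 10 genes did not move as 1 block: Trem2 and Apoe rose late and steeply, Tyrobp and Fabp5 more evenly over days 6 and 12, Spp1 early, and Lgals3, Cd9 and Gpnmb little or downward.

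**Figure D4:**
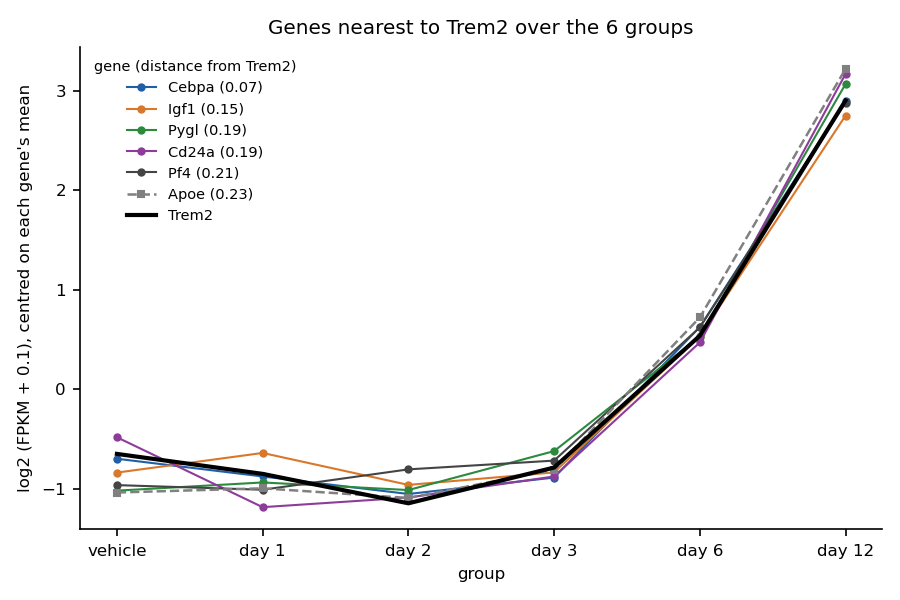
Log2 (FPKM + 0.1) of the group means, centred on each gene's own mean, for Trem2, its 5 nearest genes and Apoe in vehicle and on days 1, 2, 3, 6 and 12, with the distance from Trem2 in the legend. All 7 curves lie within a narrow band to day 3 and climb on days 6 and 12, Cebpa being closest (0.07).

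Genes that act with the 10 were read from lists chosen by function. Beside their counts, limma called 6.25% of all genes higher and 0.581% lower on day 6, and 20.4% and 34.2% on day 12. Of 10 genes of TREM2 signaling and shedding, 7 passed as higher on day 6, 7 did so on day 12 and 0 passed as lower on either day, with a median log2 ratio of 1.25 on day 6 and 1.59 on day 12. Hcst (DAP10), an adaptor beside TYROBP, averaged 14.7 FPKM on day 12, against 1.19 FPKM in vehicle (log2 fold change 3.57 ± 0.28, adjusted p = 3.86e-05 by limma). The kinase gene Syk, downstream of TYROBP, averaged 10.9 FPKM on day 12, against 2.42 FPKM in vehicle (2.12 ± 0.38, adjusted p = 0.00172). Of 5 other genes of the TREM family, 4 were under 1 FPKM on day 12 (Trem3, Treml1, Treml2 and Treml4), though Treml4 had reached 1 FPKM on day 6. Trem1 reached it on day 12, with a log2 ratio of group means of 3.00 over vehicle. The 5 genes summed to 6.52 and 1.56 FPKM in the day 12 libraries. The 2 tested, Trem1 and Treml4, were not called.

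Of 25 other genes reported in lipid-associated macrophages, 11 passed as higher on day 6 and 18 on day 12, where 2 passed as lower, with a median log2 ratio of 1.10 on day 6 and 1.94 on day 12. Lpl, the lipoprotein lipase gene of macrophages and adipocytes, averaged 284 FPKM on day 12, against 7.95 FPKM in vehicle, but the 2 day 12 libraries were at 110 and 459 FPKM. The lipid scavenger gene Cd36 likewise was at 25.1 and 60.9 FPKM in them, Arg1, the arginase of some macrophages, at 73.2 and 12.8, and Atp6v0d2, a proton pump subunit of osteoclasts and macrophages, at 12.1 and 8.36. Of the 4 MiT/TFE factors of lysosomal genes, Tfec and Tfeb were called higher on days 6 and 12, with Tfec at 6.63 FPKM on day 12, against 0.543 FPKM in vehicle.

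On day 6, limma called 3 of 10 cholesterol handling genes higher (6.25% of all genes) and 1 lower (0.581%). By day 12 these counts were 6 (20.4% of all genes) and 2 (34.2%). The efflux pump gene Abca1 averaged 17.7 FPKM on day 12, against 1.02 FPKM in vehicle (log2 fold change 4.03 ± 0.28, adjusted p = 2.77e-05 by limma). Of the receptors of osteopontin, 0 of the 6 tested were called on day 6, and on day 12 Itgb5 was among 2 called higher and Itgb1 was called lower. The CD44 gene Cd44 averaged 48.2 FPKM on day 12, against 50.7 FPKM in vehicle.

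The families of Fabp5, Plin2, Lgals3 and Cd9 held genes that behaved otherwise. Fabp4, the adipocyte relative of Fabp5, averaged 2553 FPKM on day 12, against 39.2 FPKM in vehicle, with 455 and 4651 FPKM in the day 12 libraries. Plin1, the adipocyte perilipin, was at 5.85 and 50.5 FPKM in them and averaged 0.442 FPKM in vehicle, while Plin3 was called lower (log2 fold change -0.63 ± 0.12, adjusted p = 0.00258 by limma). Among galectins the adipocyte gene Lgals12 was called higher on day 12 (4.38 ± 0.84, adjusted p = 0.00242 by limma), and the leukocyte tetraspanin gene Cd53 was called higher (1.94 ± 0.37, adjusted p = 0.00243), in contrast to Cd9 in direction.

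Markers of other cells moved with the late days. Beside the counts below, limma called 20.4% of all genes higher and 34.2% lower on day 12, and 6.25% higher on day 6. limma called each of the 12 adipocyte markers higher on day 12. Their summed level was 1058 and 10346 FPKM on day 12, against 54.3 and 116 FPKM in vehicle. On day 6 it was 63.8 and 166 FPKM, with 0 of 12 called. The 7 neutrophil markers likewise each passed as higher, summing to 569 and 30.3 FPKM on day 12, against 3.74 and 4.48 FPKM in vehicle. Of 8 fibroblast markers, 6 were called higher and 2 lower on day 12, with sums of 361 and 282 FPKM on day 12, against 79.0 and 81.3 FPKM in vehicle. Of 8 epithelial and tumor cell markers, 7 were tested, with 6 called higher and 1 lower on day 12. Their sums were 97.1 and 321 FPKM on day 12, against 109 and 146 FPKM in vehicle. Only 1 of the 8 reached 1 FPKM in vehicle or on days 1, 2, 3 or 6, so the sums before day 12 were nearly all that gene's. The sum is thus not a measure of tumor cell content. Krt19 of this list averaged 77.0 FPKM on day 12 (9.83 and 144 in the 2 libraries), against 0.952 FPKM in vehicle. None of these lists had a marker at 0 on day 12. Melanocyte markers, listed because Gpnmb is used by melanocytes, summed to 0.335 and 0.808 FPKM on day 12, against 0.0310 and 0.0949 FPKM in vehicle, with Tyr at 0.

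**Figure D5:**
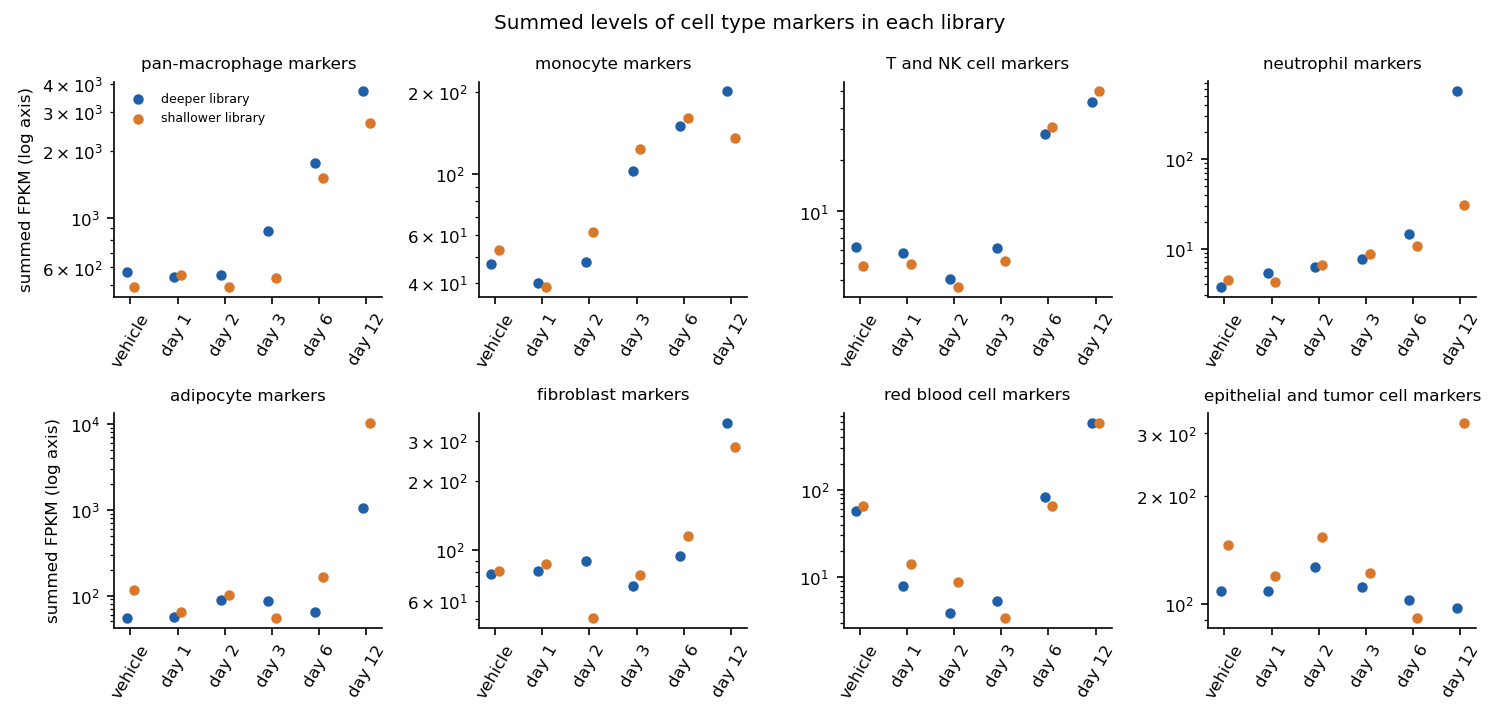
Summed FPKM (log axis) of marker lists for 8 cell types in each library of vehicle and days 1, 2, 3, 6 and 12, with 1 point per library. Macrophage and T and NK cell sums are higher on days 6 and 12, and the day 12 libraries differ most in adipocyte (1058 and 10346 FPKM) and neutrophil (569 and 30.3 FPKM) markers. Epithelial and tumor cell markers sum to 97.1 and 321 FPKM on day 12, against 109 and 146 FPKM in vehicle, and only 1 of them reached 1 FPKM before day 12.

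The adipocyte sum was 9.77-fold higher in the shallower day 12 library than in the deeper. The macrophage sum was 1.39-fold and the neutrophil sum 18.8-fold higher in the deeper. Adipocytes also use Apoe, Fabp5, Plin2 and Cd9. In FPKM each of these 4 genes was higher in the deeper library, Apoe and Plin2 by 1.40-fold, Cd9 by 1.68-fold and Fabp5 by 2.32-fold. Trem2 differed by 1.05-fold between the libraries. Relative to the macrophage markers, Trem2, Apoe and Plin2 were higher in the shallower library, and Fabp5 and Cd9 in the deeper. On day 6, where 0 of 12 adipocyte markers and 1 of 7 neutrophil markers were called, 6 of the 10 genes were called higher. On that day 6 of 6 tested T and NK cell markers, 5 of 6 monocyte markers and 2 of 2 tested dendritic cell markers were called higher too. Over all genes 6.25% were called higher. NK cells also use Tyrobp, but the NK cell genes of the 8 listed, Ncr1 and Klrb1c, were under 1 FPKM on days 6 and 12 and not tested. The 6 called are T cell genes. Of the 7 dendritic cell markers listed, Flt3, Zbtb46, Xcr1, Clec9a and Itgae were under 1 FPKM on both days and not tested. The T and NK cell sum was 28.3 and 30.9 FPKM on day 6 and 43.4 and 49.9 FPKM on day 12, against 6.19 and 4.799 FPKM in vehicle. On day 3, when Spp1 was called, 1 of 6 monocyte markers and 0 of 15 macrophage markers were called higher, beside 0.727% of all genes. The monocyte sum was 103 and 124 FPKM on day 3, against 47.0 and 53.1 FPKM in vehicle. The part of these cells in the changes of the 10 genes was not tested.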

How the data were processed

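The authors mapped reads with TopHat2 to the mouse genome (mm9), counted them per gene with featureCounts and compared groups with edgeR, per the labels and their processing notes. The tool versions are not given in the sources used here. FPKM values were deposited as means of the 2 libraries of each group. Ratio, fold and p-value columns for each day against vehicle, deposited by the authors, hold their own comparisons and were not used.

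From the deposited FPKM means, gene length and library counts were solved together, given the libraries' scaling totals. The shortest length at which whole counts gave the means of all groups was taken. A multiple of this length, with all counts of the gene multiplied alike, gives the same FPKM. Library FPKM do not depend on this choice, but the counts given and limma-voom do. Scaling totals were 18726093 to 46414557 reads. Counting error at this depth is small for genes at 1 FPKM or more, and the spread between pools sets the precision. P-values rest on 1 variance per gene, taken from the spread between pools within all 6 groups and assumed equal in each. In the main fit a gene thus has the same standard error on every day. Where its day 12 pools lie further apart than other pools, their spread is understated and that of other days overstated. limma 3.58.1 (R 4.3.3) was fitted to log2 (FPKM + 0.1) of all 12 libraries, with 1 mean per group, a trended prior variance and Benjamini-Hochberg adjustment over 11695 genes at 1 FPKM or more in at least 1 group mean. Fold changes on this scale understate those of low genes. The deposited unit being FPKM, counts entered only an alternative fit (limma-voom). Fits and recovery were tested on simulated data. Python 3.11.15, numpy 2.4.6, pandas 2.3.3 and matplotlib 3.10.9 were used.

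The 10 genes and the other lists were chosen with earlier results of these data known. Other genes are named where they had the largest absolute log2 ratio of their list on any day at 5 FPKM or more in any group (up to 4 per list), or were among the 5 nearest to Trem2; markers under 1 FPKM or at 0 were named after their values were seen. Group ratios and their alternatives were planned on group means. The limma test, the comparison of day 12 with day 6 and the alternatives of both were chosen after seeing the data: other pseudocounts, scalings and minimum levels, no variance trend, limma-voom on the recovered counts, a 2-fold minimum, each library left out in turn (a lone library is then assumed to vary like the other groups), and both day 12 libraries left out. Of the cholesterol handling list, 1 gene that the rule would name is not reported here.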

Additional observations from a re-analysis of the deposited data

How the results depend on the processing

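No paired analysis was possible because the recovered libraries carry no pool number. Of 520 limma values of the 10 genes under other settings, 482 kept their direction and side of the threshold, 23 no longer passed, 4 newly passed and 11 changed sign. Of 720 values with 1 library left out, 637 held, 62 no longer passed, 7 newly passed and 14 changed sign. Every sign change was of a value that did not pass. Recentred on the median gene, the log2 fold change was -0.0047 for Tyrobp and -0.0045 for Apoe on day 1, -0.0014 for Cd9 on day 3, and 0.023 for Lgals3 on day 12 and 0.21 for day 12 over day 6. Under upper quartile scaling it was -0.0034 for Tyrobp and -0.0032 for Apoe on day 1, and 0.027 for Lgals3 on day 12 and 0.19 for day 12 over day 6. Rescaled to a common FPKM sum, Cd9 was at 0.064 on day 1 and 0.025 on day 6. With each library left out, values that crossed 0 ran on day 1 from -0.072 to 0.15 for Tyrobp, -0.056 to 0.14 for Apoe, -0.016 to 0.25 for Gpnmb, -0.83 to 0.035 for Spp1 and -0.046 to 0.32 for Fabp5. On day 2 they ran from -0.29 to 0.15 for Apoe and -0.49 to 0.041 for Cd68, on day 3 from -0.14 to 0.53 for Apoe and -0.067 to 0.12 for Cd9, and on day 12 from -0.016 to 0.72 for Gpnmb. For day 12 over day 6 they ran from -0.26 to 0.065 for Lgals3 and -1.21 to 0.26 for Cd68. Where a count or median of the 10 genes moved, the cause was not tested. For day 3, the number called higher was 0 when libraries were rescaled to a common FPKM sum, with no minimum FPKM or with no variance trend, and 2 without both day 12 libraries. For day 6 it was 3 with no minimum FPKM, and 4 when rescaled or with no variance trend. For day 12 it was 6 when rescaled or with no minimum FPKM and 8 when recentred. For day 12 the number called lower was 0 under upper quartile scaling or with 2-fold required as well. For day 12 over day 6, the number called higher was 2 when rescaled, 3 with no minimum FPKM and 3 with 2-fold required, and the number called lower was 0 when recentred, under upper quartile scaling or with 2-fold required. On group ratios, the day 1 median was 0.12 when rescaled, and 1 gene was lower on day 12 with a fold minimum of 1.5.

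With each library left out in turn, the number called higher ran from 0 to 2 on day 3, 1 to 7 on day 6, 6 to 8 on day 12 and 2 to 7 for day 12 over day 6, and the number called lower was 1 throughout on day 12 and ran from 0 to 2 for day 12 over day 6. On group ratios, the number over 2-fold higher ran from 0 to 1 on day 2, 1 to 2 on day 3 and 5 to 7 on day 12, and was 6 throughout on day 6, and the number over 2-fold lower ran from 0 to 1 on day 12. The medians ran from -0.08 to 0.05 on day 1, -0.12 to -0.033 on day 2, 0.12 to 0.39 on day 3, 1.14 to 1.46 on day 6 and 1.22 to 2.29 on day 12. The main limits are 2 pools per group, day 12 libraries that differ in adipocyte and neutrophil markers, and age and number of doses that go with day.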
